A study of Mus musculus with 6 samples.

Results

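The genes that encode the proteasome were followed in RNA-seq of naive CD8 T cells from CD103KO and WT mouse lymph nodes. Members were the rows whose gene symbol begins with Psm, a letter from a to g and a number, Psme1 to Psme4 included, with a mean of at least 1 CPM (counts scaled by library total and TMM factor, where 1 count equals 0.0104 to 0.0147 CPM) over the 6 libraries. Of 55450 genes in the deposited table, 48 rows had such a symbol and 46 reached that level. The lowest of the 46 was Psmg3, at 11.1 CPM in CD103KO and 10.5 CPM in WT. Just outside were Psma8, the testis form of an alpha subunit, with 3 counts in CD103KO and 1 in WT, and Psmb11, the catalytic subunit of thymic cortical epithelium, with 1 count in CD103KO and 0 in WT.

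The CD103KO group (3 libraries) came from Itgae-/- mice, which lack CD103, the integrin alpha E chain, and the WT group (3 libraries) from C57BL/6 mice. All cells were sorted as CD8 T cells negative for Ly6C and CXCR3, with no treatment given in the labels. No label states the age of the mice, how many were used per library or the background strain of the mutants. Whether each library is a different mouse is not stated either, and p-values therefore reflect only how far these samples spread, which may be technical. Total counts were 68292475 to 76044311 in CD103KO and 74438908 to 94347034 in WT libraries. Itgae averaged 65.6 ± 3.9 CPM in CD103KO and 482 ± 19.3 CPM in WT (SD, n = 3 each). WT replicates 1 and 2 stood apart, with 5012 and 7628 Xist counts and 0 counts of the Y-linked Ddx3y, while the CD103KO group and WT replicate 3 gave 0 to 2 counts of Xist and 3612 or more of Ddx3y. Eif2s3y, Kdm5d and Uty, also Y-linked, were at 0 CPM in WT replicates 1 and 2 only. No label gives the sex, but the cells of these libraries look female and those of the others male. Apparent sex and genotype thus partly coincide. The counts and medians of the main groups of proteasome genes are therefore also given with a term for Xist reads. All 8 CD8 T cell markers were expressed, summing to 6755 to 7034 CPM in CD103KO and 6684 to 7112 CPM in WT. The 10 B cell markers were all positive in log2 fold change (median 1.89). Of these, 3 were called (adjusted p under 0.05, edgeR, passed by 0.223% of tested genes) and 8 had an unadjusted p under 0.05. Their sum was 33.4 to 39.8 CPM in CD103KO and 26.4 to 29.3 CPM in WT, most of it from Cd79b, at 25.5 CPM in CD103KO and 25.3 CPM in WT. The 8 erythrocyte and platelet markers summed to 57.5 to 93.1 CPM in CD103KO and 33.0 to 50.1 CPM in WT. Of the 5 tested, 5 were positive, with a median of 1.02, 4 had an unadjusted p under 0.05 and 0 were called. B cells use the immunoproteasome too, and the part of these markers in the results on proteasome genes was not tested. Myeloid and dendritic markers summed to 5.14 to 6.59 CPM in CD103KO and 4.72 to 7.57 CPM in WT, and stromal markers to 127 to 167 CPM in CD103KO and 137 to 151 CPM in WT, nearly all of it Pecam1. A single marker of each of these lists and of the platelet list had 0 counts in every library (Siglech, Pdpn and Pf4).

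The proteasome is the barrel-shaped protease that degrades ubiquitin-tagged proteins. Its 20S core stacks rings of alpha subunits, which gate the entrance, on rings of beta subunits, of which Psmb5, Psmb6 and Psmb7 carry the active sites in most tissues. In lymphocytes and after interferon, newly built cores take up Psmb8, Psmb9 and Psmb10 in their place, giving the immunoproteasome, known for cutting peptides that suit MHC class I. The 19S particle recognises and unfolds substrates, and PA28 (Psme1 and Psme2) is an interferon-inducible cap of the same core. The comparison addressed here is whether this machinery, and its split into constitutive and immunoproteasome forms, differed in level without CD103.

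The start regions of catalytic subunits are shown because the constitutive and immunoproteasome genes are known to be under different control, the first by NFE2L1, which binds antioxidant response elements, and the second by interferon-activated factors. The 150 bases before the RefSeq start (build GRCm38.p6) are written 5′ to 3′ on the strand of the gene, with capitals marking a match to TGACNNNGC, the core of the antioxidant response element, or to TTCNNNGAA, the gamma-activated sequence. They lie at chr14:54617996-54618145 (minus strand) for Psmb5, chr11:70525207-70525356 (plus) for Psmb6, chr17:34198045-34198194 (plus) for Psmb8 and chr17:34187331-34187480 (minus) for Psmb9.
Psmb5: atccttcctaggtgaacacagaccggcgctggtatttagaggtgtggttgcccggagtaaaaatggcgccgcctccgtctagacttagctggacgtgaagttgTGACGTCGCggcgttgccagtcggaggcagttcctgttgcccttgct
Psmb6: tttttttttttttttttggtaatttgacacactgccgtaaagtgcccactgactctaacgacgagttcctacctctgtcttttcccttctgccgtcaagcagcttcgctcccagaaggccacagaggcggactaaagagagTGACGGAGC
Psmb8: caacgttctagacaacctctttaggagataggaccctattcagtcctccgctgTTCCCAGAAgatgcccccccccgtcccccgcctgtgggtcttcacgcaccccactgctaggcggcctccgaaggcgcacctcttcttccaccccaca
Psmb9: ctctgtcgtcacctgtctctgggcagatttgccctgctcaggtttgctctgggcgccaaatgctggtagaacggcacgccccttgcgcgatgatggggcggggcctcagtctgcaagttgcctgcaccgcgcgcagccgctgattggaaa

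Psmb5 and Psmb6 each held an antioxidant response element core, and Psmb8 a gamma-activated sequence. Psmb7, the other constitutive catalytic subunit, had no RefSeq promoter among those used and was not searched. Psmb9 held neither here. In the GENCODE annotation, whose Psmb9 start differs from the RefSeq one, it starts 211 bases from Tap1, a peptide transporter gene on the opposite strand. The GENCODE exons of the pair overlap by 212 bases. The windows printed for Psmb8 and Psmb9 lie within the GENCODE bounds of these genes (34197721 to 34201454 and 34181987 to 34187764). Psmb10 had no match either, and Psmd2 held a gamma-activated sequence, TTCTGGGAA, 5 bases after its start. RefSeq promoters, from 250 bases before the start to 50 after it, were matched for 40 of the 48 genes. Both strands were searched and a motif counted wherever it fell. TGACNNNGC was in 6 of 40 (15.0%) against 12.5% of 27025 promoters of the genome, TTCNNNGAA in 3 (7.5%) against 8.47%, and CCAAT in 14 (35.0%) against 37.9%. The core of the interferon-stimulated response element, GAAA followed by GAAA after 2 free bases, was in 5 (12.5%), namely Psmb3, Psmd4, Psmd9, Psme1 and Psmg4, against 3.49% of all promoters. The match in Psme1, TTTCGCTTTC, begins 10 bases after the start. A match describes the letters and says nothing of binding.

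Psme1, Psmb8 and Psme2, genes of PA28 and of the immunoproteasome, were the most abundant of the 46 in both groups. Levels between genes are compared as TPM, computed with the length of the principal annotated transcript of each gene. Psme1, the PA28 alpha subunit, averaged 575 ± 11.8 TPM in CD103KO and 571 ± 8.24 TPM in WT (SD, n = 3 each). Psmb8 averaged 437 ± 20.1 and Psme2, PA28 beta, 419.99 ± 20.3 TPM in CD103KO, against 433 ± 19.5 and 419 ± 20.6 TPM in WT. These 3 genes also ranked highest of all when the union of annotated exons was used as length, with Psme2 above Psmb8. Psmb10 and Psmb9 were lower, at 185 and 162 TPM over all 6 libraries, among 20S subunits such as Psma7 (271 TPM) and Psmb3 (256 TPM).

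**Figure D1:**
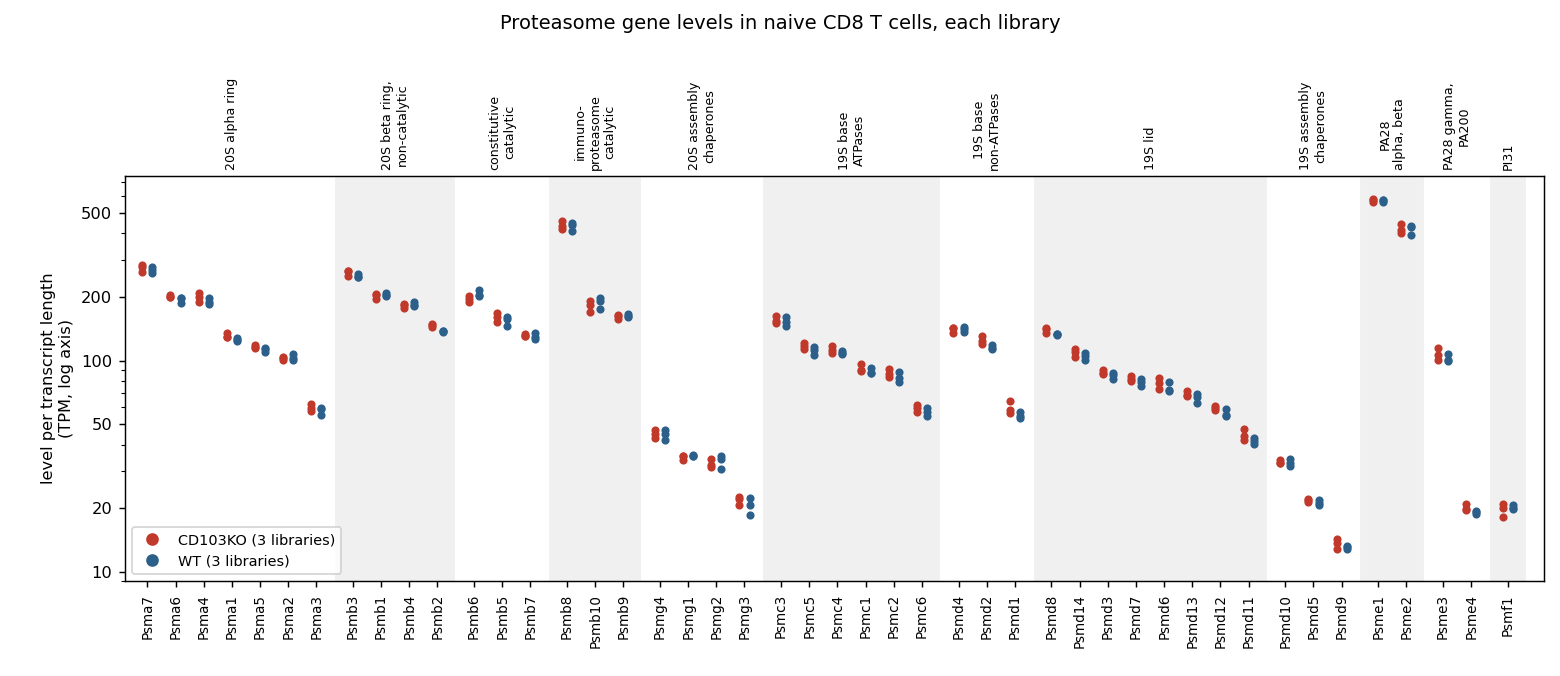
Level of each of the 46 proteasome genes per transcript length, in TPM on a log axis, by structural group, with 1 point per library, CD103KO left of WT. Psme1, Psmb8 and Psme2 stand highest and Psmd9 lowest, and the points of both groups lie side by side for every gene.

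Transcript levels of core and particle subunits were spread widely. The alpha ring ran from 59.0 TPM for Psma3 to 271 TPM for Psma7, and the non-catalytic beta subunits from 142 TPM for Psmb2 to 256 TPM for Psmb3. Constitutive catalytic subunits were at 201 (Psmb6), 157 (Psmb5) and 131 TPM (Psmb7). In the 19S particle, the ATPases of the base ran from 58.2 (Psmc6) to 154 TPM (Psmc3) and the lid from 42.9 (Psmd11) to 137 TPM (Psmd8), a lid median of 78.3 TPM. Assembly factors were among the scarcest: the chaperones of the base, Psmd5, Psmd9 and Psmd10, were at 13.3 to 33.0 TPM and the core chaperones Psmg1 to Psmg4 at 21.2 to 44.8 TPM. Psmf1, the regulator PI31, and Psme4, the nuclear cap PA200, were at 19.97 and 19.6 TPM. The order within a group depends on the length used: with union lengths Psma6 (250.2 TPM), not Psma7 (121 TPM), led the alpha ring.

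No proteasome gene passed the test between CD103KO and WT. With edgeR's quasi-likelihood test and Benjamini-Hochberg adjustment over 13470 tested genes, 0 of 46 passed an adjusted p of 0.05, a threshold that 0.223% of tested genes passed. At an unadjusted p under 0.05 the count was 0 of 46, against 8.73% of tested genes. DESeq2 and limma-voom called 0 too. At an unadjusted p under 0.05 DESeq2 had 1 member (Psmd2), beside 7.93% of tested genes, and limma-voom 0 members, beside 8.89%. The smallest adjusted p was 0.577, for Psmd2 (edgeR). Log2 fold changes ran from -0.09 for Psmb6 to 0.11 for Psmd1, with a median of 0.04, beside -0.0025 for all tested genes. Of the 46, 33 were positive (71.7%), beside 49.0% of all tested genes and 51.7% of those at 10 CPM or more. Most members shifted together from library to library, as described below, so their signs are not independent. Leaving out CD103KO replicate 3 gave a median of 0.0076, leaving out WT replicate 2 gave -0.0021 and leaving out WT replicate 3 gave 0.0609. The median size of the log2 fold change, sign ignored, was 0.0424 over the members and 0.0527 over tested genes at 10 CPM or more. The 95% intervals of the edgeR fit give the range of each difference. Over the 46 genes the highest upper bound was 22.3% above the WT level, for Psmg3, and the lowest lower bound was -14.3%, for Psmb10. The median SE was 0.0505 on the log2 scale, beside 0.0586 for tested genes at 10 CPM or more.

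**Figure D2:**
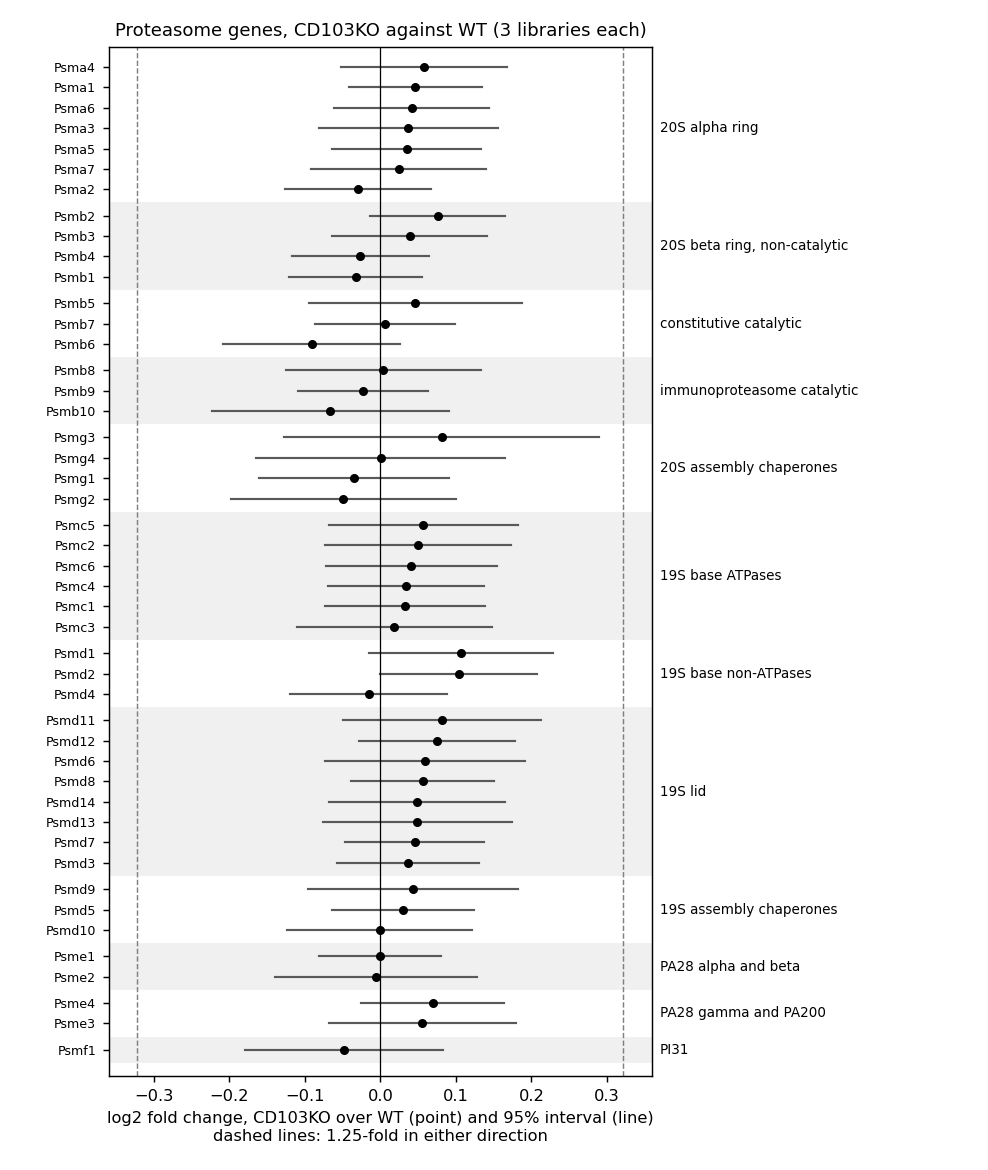
Log2 fold change of CD103KO over WT (points) with 95% intervals (lines) for the 46 proteasome genes by structural group, n = 3 libraries each. The points lie between -0.09 and 0.11, and no interval reaches the dashed lines, whose fold is given under the axis.

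Of the constitutive catalytic subunits, Psmb5 and Psmb7 had log2 fold changes of 0.05 and 0.01 and Psmb6 the lowest of any member. Psmb5, the chymotrypsin-like subunit, had 77.9, 83.4 and 87.1 CPM in CD103KO libraries 1 to 3, against 81.1, 73.9 and 85.6 CPM in WT libraries 1 to 3. Psmb7, the trypsin-like subunit, had 86.7, 87.3 and 89.2 CPM in CD103KO, against 89.5, 83.6 and 89.2 CPM in WT. The groups overlapped for both genes, with 95% intervals of -0.09 to 0.19 (Psmb5) and -0.09 to 0.10 (Psmb7) and adjusted p of 0.864 and 0.981 (edgeR). Psmb6, the caspase-like subunit, had 89.5, 86.7 and 92.6 CPM in CD103KO, against 93.1, 91.1 and 102 CPM in WT, giving -0.09 on the log2 scale (SE 0.05, interval -0.21 to 0.03, adjusted p = 0.668 by edgeR). Its highest CD103KO value lay above its lowest WT value, so the groups overlapped, and WT replicate 3 was the highest library.

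None of the immunoproteasome catalytic subunits passed the test, and 2 of 3 had negative log2 fold changes. Psmb8, the counterpart of Psmb5, had 390.02, 407 and 429.7 CPM in CD103KO, against 409, 379 and 434 CPM in WT, a log2 fold change of 0.004 (95% interval -0.13 to 0.13). Psmb9, the counterpart of Psmb6, had 126, 128 and 122 CPM in CD103KO, against 128, 124 and 129.8 CPM in WT (-0.02, interval -0.11 to 0.06). Psmb10, the counterpart of Psmb7, had 128, 138 and 144 CPM in CD103KO, against 144, 129.96 and 155 CPM in WT (-0.07, interval -0.22 to 0.09). In each case the groups overlapped, and the adjusted p were 0.988, 0.888 and 0.812 (edgeR).

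The balance of constitutive and immunoproteasome subunits was compared within libraries, which removes any scaling between them. The ratio of Psmb8 to Psmb5 in CPM was 5.01, 4.88 and 4.94 in CD103KO, against 5.05, 5.13 and 5.07 in WT. Every CD103KO ratio was below every WT ratio, and the log2 ratio differed by -0.04 (2.30 ± 0.02 in CD103KO and 2.35 ± 0.01 in WT, SD, n = 3 each). The exact two-sided permutation p was 0.1, the smallest that 3 against 3 libraries can give, and 0.3 adjusted over the 3 pairs. A test of this size cannot reach 0.05, so the p does not weigh the difference either way. Both genes spread more than their ratio, with SDs of log2 CPM of 0.07 (Psmb8) and 0.08 (Psmb5) in CD103KO and 0.10 and 0.11 in WT. For Psmb9 to Psmb6 the ratio was 1.40, 1.47 and 1.32 in CD103KO, against 1.38, 1.36 and 1.27 in WT, and for Psmb10 to Psmb7 it was 1.47, 1.58 and 1.62 in CD103KO, against 1.61, 1.56 and 1.74 in WT. These groups overlapped, with log2 differences of 0.07 and -0.07 (exact two-sided permutation p = 0.4 and 0.5, both 0.5 adjusted).

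**Figure D3:**
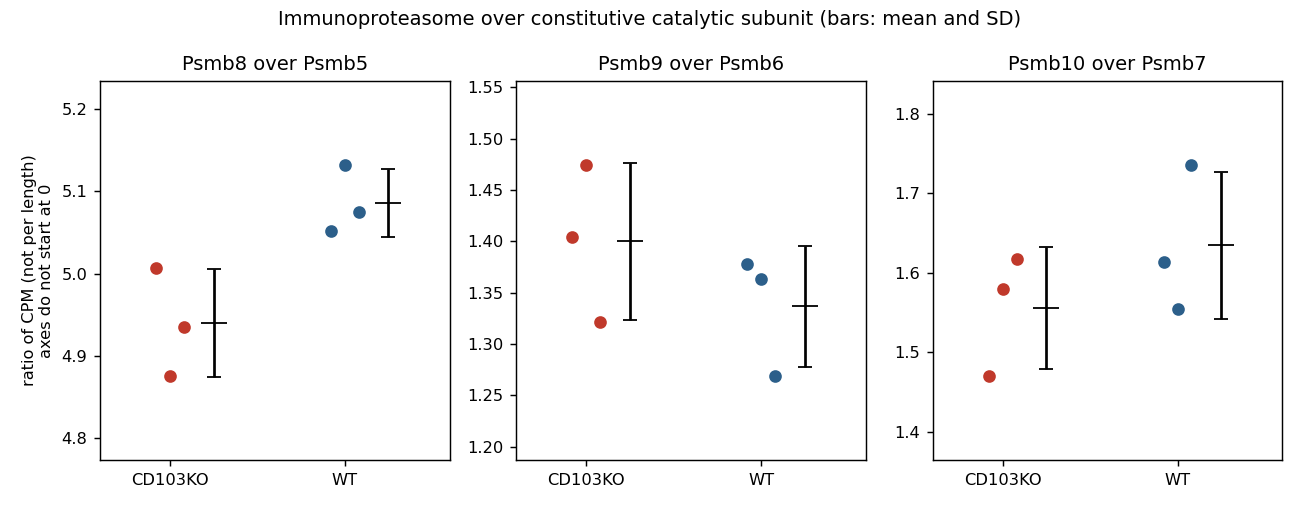
Ratio of CPM of each immunoproteasome catalytic subunit to the constitutive subunit it replaces, 1 point per library, CD103KO left of WT, with mean and SD (n = 3 each), on axes that do not start at 0. For Psmb8 over Psmb5 the CD103KO libraries (4.88 to 5.01) lie below the WT libraries (5.05 to 5.13), and for the other pairs the groups overlap.

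Per length, the ratio of Psmb8 to Psmb5 was 2.73 ± 0.0362 in CD103KO and 2.81 ± 0.0228 in WT (SD, n = 3 each). That of Psmb10 to Psmb7 was 1.38 ± 0.0676 in CD103KO and 1.45 ± 0.0814 in WT, and that of Psmb9 to Psmb6 was 0.826 ± 0.045 in CD103KO and 0.789 ± 0.0348 in WT. With union exon lengths the ratio of Psmb8 to Psmb5 was 1.31 in CD103KO and 1.35 in WT, that of Psmb10 to Psmb7 3.12 in CD103KO and 3.28 in WT, and that of Psmb9 to Psmb6 0.716 in CD103KO and 0.684 in WT. Psmb8 and Psmb10 were above their counterparts and Psmb9 below with either length, and the size of the excess depended on the length chosen.

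The PA28 pair had a median log2 fold change of -0.0029, and of -0.0556 with a term for Xist reads. Psme1 had 367, 359.7 and 375 CPM in CD103KO, against 368, 362 and 372 CPM in WT (log2 fold change -0.0003, interval -0.08 to 0.08, adjusted p = 0.998, edgeR). Psme2 had 221, 230.1 and 245 CPM in CD103KO, against 236, 216 and 248 CPM in WT (-0.0055, interval -0.14 to 0.13, adjusted p = 0.985 by edgeR). With the term for Xist reads Psme1 was at -0.02 and Psme2 at -0.09. Psme2 is uncertain, because the retrogene Psme2b on chromosome 11 is 99.4% identical to it over 794 bases and took 41.3 ± 0.640 CPM in CD103KO and 41.6 ± 2.74 CPM in WT. Psme2 and Psme2b summed to 273 ± 12.3 CPM in CD103KO and 275 ± 18.9 CPM in WT. The other caps, Psme3 (PA28 gamma, a nuclear form) and Psme4, had log2 fold changes of 0.06 and 0.07, and Psmf1 of -0.05.

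In the 19S particle, 16 of 17 base and lid genes had a positive log2 fold change, with a median of 0.0488, and 0 of 17 passed the test. Psmd2, a scaffold of the base (also called Rpn1), had 203, 210.2 and 224 CPM in CD103KO, against 201, 191 and 201 CPM in WT, with every CD103KO library above every WT library (log2 fold change 0.10, SE 0.05, adjusted p = 0.577, edgeR). Psmd1, the other large scaffold (Rpn2), had 101, 104 and 115 CPM in CD103KO, against 102, 96.5 and 98.5 CPM in WT (0.11, SE 0.05, adjusted p = 0.624, edgeR). CD103KO replicate 3 was the highest library for both, and without it their log2 fold changes were 0.06 and 0.05. Without CD103KO replicate 1 they were 0.13 for Psmd2 and 0.15 for Psmd1, with adjusted p of 0.261 and 0.277 (edgeR). Psmd4, the ubiquitin receptor Rpn10, was the negative member (-0.02). The 6 ATPases Psmc1 to Psmc6, which form the unfolding ring, lay between 0.02 (Psmc3) and 0.06 (Psmc5). The 8 lid genes lay between 0.04 (Psmd3) and 0.08 (Psmd11), with Psmd14, the deubiquitinase of the lid, at 0.05. The count of positive signs moved with WT replicate 2: without it 12 of 17 were positive with a median of 0.0067, and with a term for Xist reads 9 of 17, with a median of 0.0009.

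In the 20S core without the immunoproteasome subunits, 10 of 14 genes were positive with a median of 0.04. Without WT replicate 2 the count was 5 of 14 with a median of -0.0111, and with a term for Xist reads 3 of 14 with a median of -0.0357. With that term the alpha ring median was -0.0296, against 0.037 without it, and the median of the non-catalytic beta subunits -0.0404, against 0.0063. The alpha ring lay between -0.03 (Psma2) and 0.06 (Psma4), and the non-catalytic beta subunits between -0.03 (Psmb1) and 0.08 (Psmb2). Psmb2 had 72.1, 71.1 and 73.4 CPM in CD103KO, against 68.3, 66.5 and 70.8 CPM in WT. Psmb2 and Psmd2 were the 2 members of 46 with no overlap between groups, where 14.2% of tested genes had none (adjusted p of Psmb2 0.641, edgeR). Among assembly factors, Psmg3 and Psmg2 had the highest and lowest values of the core chaperones, 0.08 and -0.05, and Psmd9 and Psmd10 of the base chaperones, 0.04 and -0.0011. In all, proteasome genes held 0.501 ± 0.0129% of counts in CD103KO and 0.496 ± 0.0131% in WT (SD, n = 3 each). The immunoproteasome catalytic genes held 0.0669 ± 0.00239% in CD103KO and 0.0679 ± 0.0033% in WT, and the constitutive catalytic genes 0.026 ± 0.000674% in CD103KO and 0.0263 ± 0.00104% in WT. In bulk RNA such shares cannot tell fewer cells of a type from less RNA per cell.

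Levels of the proteasome genes differed between libraries of 1 group, and in most of the genes in the same direction. Relative to the mean of each gene over the 6 libraries, the median over the 46 in log2 CPM was -0.02, 0.01 and 0.06 in CD103KO libraries 1 to 3, and 0.005, -0.08 and 0.04 in WT libraries 1 to 3. The same median over all tested genes stayed between -0.0033 and 0.0023. WT replicate 2 was the lowest of the 6 libraries for 33 of the 46 genes, and CD103KO replicate 3 the highest for 23 and WT replicate 3 for 15. WT replicate 2 was also the deepest library, and the part of depth in this was not tested. Among WT libraries, replicate 2 was lowest for 40 of 46 genes (87.0%), against 32.9% of all tested genes. The within-group SD of log2 CPM had a median of 0.058 over the members, beside 0.0666 for tested genes at 10 CPM or more.

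**Figure D4:**
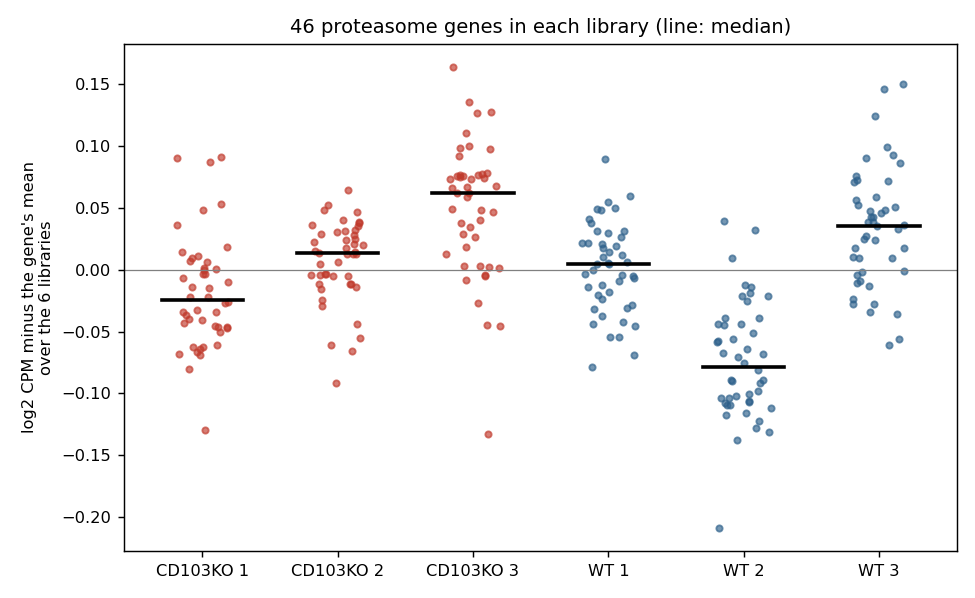
Log2 CPM of each of the 46 proteasome genes minus its own mean over the 6 libraries, 1 point per gene, with the median of each library as a line. WT 2 sits lowest (median -0.08) and CD103KO 3 highest (0.06), while the other libraries lie between them.

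WT replicate 3, the WT library with 1 Xist count, was above both other WT libraries for 32 of 46 genes (69.6%), against 35.0% of all tested genes. The contrast was therefore also fitted with a term for Xist reads, which sets CD103KO against WT replicate 3 alone. That lone library is assumed to vary like the others, whose spread gives the SE and p, and it was the WT library highest in Psmb6 and Psmb10. The median over the members was then -0.02 and 18 of 46 were positive, against 33 without the term, and 0 passed. With that term Psmb6 stood at -0.19 on the log2 scale (SE 0.06) and Psmb10 at -0.18 (SE 0.08). With the term Psmb8 was at -0.09, Psmb9 at -0.05, Psmb5 at -0.05 and Psmb7 at -0.02. The median of the immunoproteasome catalytic subunits was then -0.0868, against -0.0234 without the term. That of the constitutive catalytic subunits was -0.0474, against 0.0057. The log2 ratio of Psmb10 to Psmb7 differed by -0.16 in this fit and that of Psmb9 to Psmb6 by 0.14.

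Of the 8 proteasome genes on chromosome 11, which carries Itgae, 2 lie within 20 Mb of it (GRCm38). Psmb6 (chromosome 11, 70525367 to 70527858, plus strand) is 2.56 Mb away and Psmd11 (80428615 to 80473248, plus strand) 7.28 Mb. Their log2 fold changes lay on opposite sides of 0, -0.09 for Psmb6 and 0.08 (SE 0.06, adjusted p = 0.72, edgeR) for Psmd11. With a term for Xist reads Psmb6 was at -0.19 and Psmd11 at -0.0002. The part of nearness to Itgae in these values was not tested. Psmd11 has a near copy, A730017L22Rik on chromosome 2, that is 97.9% identical over 1501 bases and was at 9.18 CPM, so its counts are uncertain. Of the 46 genes, 16 match another gene with at least 90% identity over 300 bases. Only 5 of the 33 matched genes reached 1 CPM, Psme2b first among them at 41.4 CPM. Not all are copies: the only match of Psmd1 is Gm21972 (1.41 CPM) and that of Psmd13 is Sirt3 (4.25 CPM). Each lies at the same locus and shares exon bases with the member. Both are among the 5, and both pairs are counted again in the overlaps that follow. Exons of 13 genes overlap those of another gene, 11 of them on the opposite strand, and no source states whether the counting used strand, so reads of such pairs may be shared.

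Of 25 tested partners and regulators, 0 passed and 2 had an unadjusted p under 0.05 (edgeR), where 8.73% of tested genes had one. Their median log2 fold change was 0.03 (15 positive). The genes named below, Tap1 aside, were picked for small p, and 14.2% of tested genes had no overlap between groups. Nfe2l1, the transcription factor that raises proteasome genes when degradation falls short, had 105, 111 and 103 CPM in CD103KO, against 103, 95.3 and 96.2 CPM in WT. Its lowest CD103KO library was just above its highest WT library (log2 fold change 0.12, SE 0.05, unadjusted p = 0.029, adjusted p = 0.506, edgeR). Zfand5, a protein that activates the 26S proteasome, averaged 44.7 ± 1.84 CPM in CD103KO and 48.6 ± 1.08 CPM in WT, with no overlap between the groups (-0.12, unadjusted p = 0.0396, adjusted p = 0.541, edgeR). Ubqln2, a shuttle for ubiquitinated proteins, averaged 68.8 ± 2.59 CPM in CD103KO and 72.8 ± 0.965 CPM in WT, its highest CD103KO library just below its lowest WT library (-0.08, unadjusted p = 0.0773, adjusted p = 0.624, edgeR). Of the 16 antigen processing genes, 0 passed and 1 had an unadjusted p under 0.05 (edgeR), beside 8.73% of tested genes, with a median of 0.02. That gene was Nlrc5, the activator of MHC class I genes, at 203, 199 and 188 CPM in CD103KO, against 172, 187 and 179 CPM in WT (0.13, SE 0.05, unadjusted p = 0.0218, adjusted p = 0.479, edgeR). Its lowest CD103KO value lay just above its highest WT value. Npepps, a cytosolic aminopeptidase, averaged 74.5 ± 5.05 CPM in CD103KO and 68.6 ± 8.62 CPM in WT (0.12, adjusted p = 0.723, edgeR). Tap1, the neighbour of Psmb9, averaged 311 ± 14.8 CPM in CD103KO and 307 ± 27.9 CPM in WT (0.02, adjusted p = 0.952, edgeR).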

How the data were processed

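Polyadenylated RNA of sorted naive CD8 T cells was sequenced in 3 CD103KO and 3 WT samples. Per the labels' protocols the library kit keeps strand. Per the submitters' processing notes, the tools were RSEM, STAR 2.7.0f, cutadapt 1.18 and bcl2fastq 2.20, and the builds named are mm10 and GRCm38. Annotation release, strand setting and RSEM version: not given in the sources used here. Values deposited by the authors are expected counts per gene, without normalization. Fractional values made up 6.48% and were rounded before testing. All 55450 identifiers matched GENCODE M21 (GRCm38), which gave coordinates, lengths and overlaps.

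The test was edgeR 4.0.16 in R 4.3.3: filterByExpr (minimum count 10), TMM, the quasi-likelihood F test with group as the model, and Benjamini-Hochberg adjustment at 0.05. The standard error is the log2 fold change divided by the square root of F, and 95% intervals use the total degrees of freedom of the fit. The test was checked on simulated counts with 200 changed genes. TPM divide counts by the length of the principal transcript (APPRIS tag, then the longest). Precision is set by the spread between libraries, more than by counting error at these depths.

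No library was a copy of another: chi-square of pairs in 1 group, divided by degrees of freedom, was 12.6 to 26.3. Promoters come from RefSeq (GRCm38.p6), and copies were sought with megablast (BLAST+ 2.17.0). Named genes were the catalytic and PA28 genes, members past an unadjusted p of 0.05, the highest and lowest of each structural group, members within 20 Mb of Itgae, members below the floor and up to 3 of smallest p in each further list, of which 1 is not reported here. Tap1, Psme2b, Psmd14 and genes named for their level, motif or copy were chosen after their values were seen. Members and lists were chosen with earlier results of these data known. Alternatives were RLE and upper-quartile factors, other filters, DESeq2 1.42.0, limma-voom (limma 3.58.1), unrounded counts, a threshold of 0.01, the replicate number as a block, a term for Xist reads, only libraries without them, each library left out, other member floors and, after seeing the data, union exon lengths and Psme2 with its copy.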

Additional observations from a re-analysis of the deposited data

How the results depend on the processing

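The count of 0 called proteasome genes held under every alternative run, with the smallest adjusted p between 0.261 (without CD103KO replicate 1) and 0.982 (without CD103KO replicate 2). At most 2 members had an unadjusted p under 0.05, without CD103KO replicate 1, where 14.1% of all tested genes had one (edgeR). No direction was called, and signs of single members changed in 79 of 736 refitted values, up to 19 of 46 members with the term for Xist reads. The median over the members was -0.021 with the term for Xist reads and -0.0206 with only libraries without them, and otherwise -0.0021 to 0.0609, its lowest without WT replicate 2 and its highest without WT replicate 3; the cause was not tested. A floor of 10 CPM or none left this median at 0.0369, but both leave the same 46 tested genes, so neither could move it. A stricter threshold on the adjusted p likewise could not add a called member where 0 passed the looser one. The log2 differences in the ratios of the 3 catalytic pairs kept their sign in all 12 refits. They were -0.0521 to -0.0329 for Psmb8 to Psmb5, 0.0286 to 0.14 for Psmb9 to Psmb6 and -0.158 to -0.0266 for Psmb10 to Psmb7. For Psmb8 to Psmb5 every CD103KO ratio lay below every WT ratio, so leaving out libraries could not change its sign. Refits that change only the scaling could not move any ratio within a library.

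Over all genes, 30 were called, against 112 with no filter on low counts, where more genes are tested, 15 with the term for Xist reads, 13 with only libraries without them, 137 with DESeq2 and 19 at an adjusted p of 0.01. Leaving out each library gave 19 (without CD103KO replicate 2) to 59 (without CD103KO replicate 1), with 52 without WT replicate 3. No pairing by replicate number was seen: same-numbered libraries had correlations of -0.279, -0.034 and 0.033 of their deviations from the group mean. Of 6 libraries, 1 correlated best with its own number. With 3 libraries per group, such correlations cannot settle whether samples were paired. With the replicate number as a block 24 genes and 0 members were called. No detection limit was computed, and the intervals give the differences that each value allows.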
